A study of Mus musculus with 2 samples.

Results

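The dissected neurohypophysis (NH) of the mouse carries a rim of the adjoining intermediate lobe (IL), and the IL cells in the deposited table of mean expression form a pair of clusters named neural progenitor a and neural progenitor b. The cells described here are those of cluster b. With 2 exceptions they were cells of high *Pomc* that, next to cluster a, held higher levels of immediate early and cAMP-responsive transcripts and of mitochondrially encoded transcripts, with lower levels of ribosomal protein and nuclear oxidative phosphorylation transcripts. The member cells were found by solving the 11 mean columns of the table for the single cells. This gave 54 of 528 cells to cluster b, 33 in pool 1 and 21 in pool 2. The lowest weight of a member in its own cluster was 0.998 and its highest weight in any other cluster was 0.00333. The 2 libraries came from 2 pools of 5 NH each, taken from 3-month-old male C57BL/6 mice and dissociated with Liberase TM and papain before capture in droplets with 10x Chromium version 2 chemistry. Both pools were of the same condition, with no treatment and no transgene named, so that the comparison was between clusters and not between treatments. Since mice were pooled, differences between single mice were not visible. Each mRNA molecule counted carried a unique molecular identifier (UMI), and no barcode was shared by the kept cells of the pools (0 barcodes).

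The IL consists mainly of melanotropes, endocrine cells that make pro-opiomelanocortin (POMC) and cut it, through the prohormone convertases PC1/3 and PC2, into α-melanocyte-stimulating hormone and β-endorphin. *Pax7* and *Tbx19* encode transcription factors of this lineage. Dopamine released by hypothalamic axons holds melanotropes back through the D2 receptor, which lowers cAMP. Immediate early genes are transcribed within minutes of a stimulus without new protein synthesis. Several of them respond to cAMP through the transcription factor CREB, which binds the cAMP response element, and others to serum response factor, which binds the CArG box.

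The promoters of 4 early response genes on which the account below turns are shown so that these elements can be seen. They were chosen because they hold matches. The RefSeq window of *Jund* held none (0 matches) and is not shown, since its start lies upstream of the gene start given by GENCODE. The RefSeq start of *Zfp36* lies inside the gene given by GENCODE, and its window is shown. Each sequence shown is the 250 bases before the start site given by RefSeq (GRCm38.p6). It is read 5′ to 3′ on the strand of the gene, with matches in capitals. *Fos* lies at chr12:85473640-85473889 on the plus strand. *Fosb* lies at chr7:19310046-19310295, *Nr4a2* at chr2:57124004-57124253 and *Zfp36* at chr7:28379229-28379478, all on the minus strand. The capitals mark TGACG, the core of the cAMP response element, on either strand, and in *Zfp36* a CArG box.
Fos: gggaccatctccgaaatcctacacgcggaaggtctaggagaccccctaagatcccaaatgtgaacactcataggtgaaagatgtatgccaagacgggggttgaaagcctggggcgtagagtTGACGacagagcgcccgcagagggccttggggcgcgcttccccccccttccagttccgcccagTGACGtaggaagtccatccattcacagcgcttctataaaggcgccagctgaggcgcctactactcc
Fosb: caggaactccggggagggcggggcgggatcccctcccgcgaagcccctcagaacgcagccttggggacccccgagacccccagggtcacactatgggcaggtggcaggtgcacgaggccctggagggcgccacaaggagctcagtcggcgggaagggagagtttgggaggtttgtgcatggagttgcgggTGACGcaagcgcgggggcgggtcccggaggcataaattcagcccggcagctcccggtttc
Nr4a2: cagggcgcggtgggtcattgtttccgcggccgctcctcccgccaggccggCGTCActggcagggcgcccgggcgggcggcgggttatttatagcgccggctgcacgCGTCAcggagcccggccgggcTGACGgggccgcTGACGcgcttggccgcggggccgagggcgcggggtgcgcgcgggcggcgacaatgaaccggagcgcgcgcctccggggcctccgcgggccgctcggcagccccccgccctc
Zfp36: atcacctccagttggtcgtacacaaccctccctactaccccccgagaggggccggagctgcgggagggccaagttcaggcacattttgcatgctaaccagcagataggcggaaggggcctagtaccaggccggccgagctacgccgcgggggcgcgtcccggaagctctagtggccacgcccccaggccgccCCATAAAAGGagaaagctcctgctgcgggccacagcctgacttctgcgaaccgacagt

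Matches to TGACG began 129 and 66 bases before the start of *Fos* and 60 bases before that of *Fosb*. In *Nr4a2* they began at 200, 144, 123 and 111 bases, and the CArG box of *Zfp36* began at 58 bases. The motifs searched on both strands were TGACG, the full cAMP response element TGACGTCA, which contains TGACG, the AP-1 site TGANTCA, the NBRE AAAGGTCA and the CArG box. Of 32851 promoters of this length in the RefSeq table, 17.8% held TGACG, 1.55% the full element, 6.75% an AP-1 site, 1.34% an NBRE and 1.47% a CArG box. Of the 34 promoters listed for the immediate early genes described below, 22 held TGACG (64.7%). It was in 14 of the 30 promoters of the cAMP-responsive genes (46.7%), in 27 of the 76 promoters of ribosomal protein genes (35.5%) and in 12 of the 23 promoters of endoplasmic reticulum (ER) genes (52.2%). Of the 13 promoters of granin and vesicle cargo genes, 8 held it (61.5%). A match is a description of these bases, and factor binding was not measured.

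The 4 melanotrope markers given for the IL cells were present in cluster b. *Pomc* (ENSMUSG00000020660, chromosome 12 from 3954951 to 3960642 of GRCm38) was at 109005 CPM (counts per 1e6 UMIs) in pool 1 and 77712 CPM in pool 2. A UMI of it was found in 54 of 54 cells, also after thinning to 1000 UMIs. In the resident T cell-like cells the share was 59.5% (38.1% thinned), and in 2 cells of cluster b *Pomc* took less than the 1.57% of UMIs that it took in the free RNA of pool 1, read from barcodes with 1 to 50 UMIs. *Pcsk2*, which encodes PC2, was at 4866 and 4797 CPM. *Nr4a2*, a nuclear receptor gene, was at 989 and 1789 CPM, and *Pde10a*, which encodes a cyclic nucleotide phosphodiesterase, at 575 and 432 CPM. All 4 were above the levels of the resident T cell-like cluster, in which *Pomc* was at 492 and 653 CPM, *Pcsk2* at 0 and 34.4 CPM and *Pde10a* at 0 UMIs. *Nr4a2* was nearest, at 182 and 172 CPM in those cells, of which 26.2% held a UMI of it. After every cell was thinned to 1000 UMIs, 87.0% of cluster b (exact 95% interval 75.1 to 94.6%, 96.3% unthinned) had a *Pcsk2* UMI. In the T cell-like cluster, where no *Pcsk2* is expected, the share was 2.38% (2.38% unthinned), where median depth before thinning was 1596 UMIs against 3673 in cluster b.

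The lineage genes were those of melanotropes. *Pax7* was at 161 and 206 CPM in cluster b, and 28 of its 54 cells held a UMI of it (9 after thinning). Of the T cell-like cells, which are shallower, 0 of 42 held one, which allows a share of cells with a UMI of up to 7.14%. *Tbx19*, named here for the check of the label and not by the rule on named genes, was at 147 and 206 CPM. *Pou1f1* and *Nr5a1*, which encode factors of anterior lobe lineages, were at 0 UMIs, which allows up to 12.3 CPM. Of the genes looked at for the word progenitor in the cluster name, *Nes*, *Hes1*, *Hes5*, *Notch1*, *Prom1* and *Dcx* were at 0 UMIs as well. *Sox2* held 13 UMIs in cluster b, and *Mki67*, a gene of dividing cells, held 1. *Cd24a*, of the neural progenitor list, held 61 UMIs in 27 of 54 cells, at 224 and 285 CPM. The genes at 0 are thus a part of that list. Cluster b is called IL cells here, after its melanotrope genes.

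**Figure D1:**
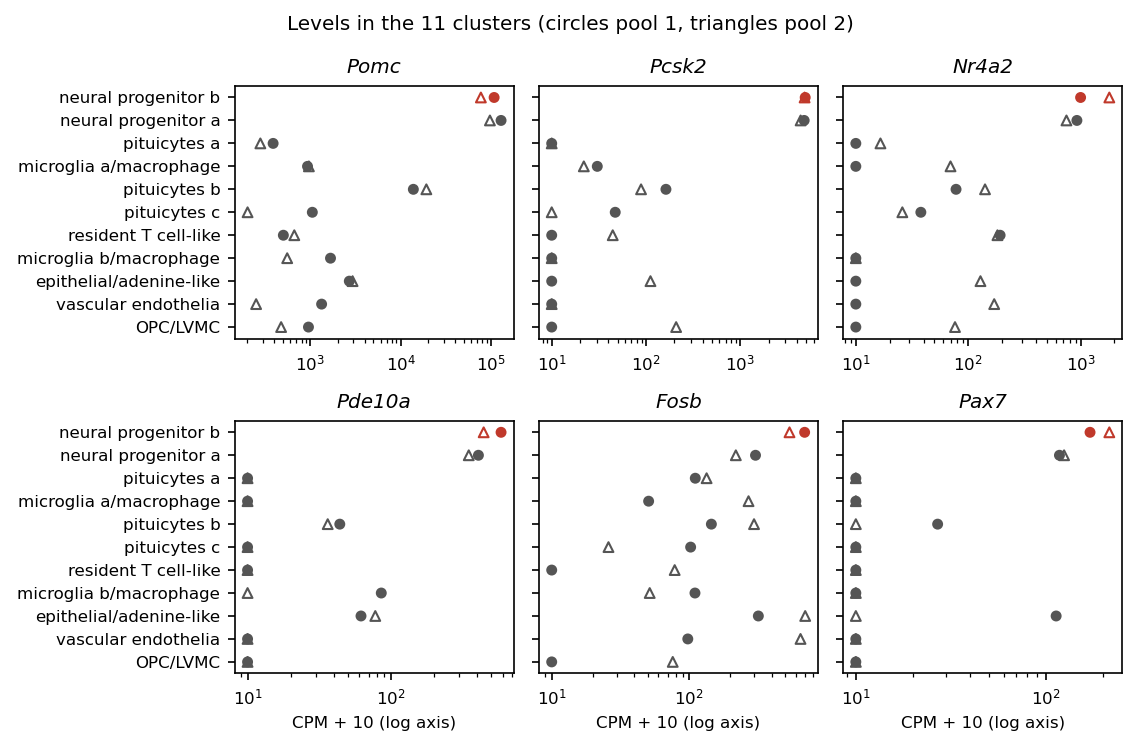
Levels of *Pomc*, *Pcsk2*, *Nr4a2*, *Pde10a*, *Fosb* and *Pax7* in the 11 clusters, as CPM plus 10 on a log axis, with circles for pool 1, triangles for pool 2 and cluster b in red. The pair of IL clusters stands at the top for the 4 markers and *Pax7*, while *Fosb* reaches 687 and 531 CPM in cluster b and 311 and 694 CPM in the epithelial cluster.

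*Pomc* fell off steeply outside the IL clusters. Cluster a was at 130115 and 97886 CPM. The cluster named pituicytes b came next, at 13849 and 19309 CPM, and no other cluster exceeded 2927 CPM in either pool. In pituicytes b 3 of the 55 cells held 1497 of the 1553 *Pomc* UMIs, and the median over its cells was 427 CPM. Among IL cells, *Pomc* was lower in cluster b than in cluster a in each pool, with a log2 ratio of -0.26 in pool 1 and -0.33 in pool 2. The 4 sums overlapped between the clusters, since cluster b of pool 1 was above cluster a of pool 2. Without 7 cells of cluster a in pool 2 that were rich in transcripts of *Gh* and *Prl* (anterior lobe hormones), cluster a was at 113714 CPM in that pool, the ratio was -0.55 and the *Pomc* sums did not overlap. *Pcsk2* differed little, with log2 ratios of 0.04 and 0.14, and *Pde10a* was higher in cluster b, with 0.48 and 0.31. The ratio of *Nr4a2* was 0.10 in pool 1 and 1.22 in pool 2, so that its mean of 0.66 ± 0.79 (SD, n = 2 pools) rested on pool 2.

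Cluster b made up 36.5% of the 148 IL cells (exact 95% interval 28.7 to 44.8%), with 41.2% in pool 1 (30.4 to 52.8%) and 30.9% in pool 2 (20.2 to 43.3%). The intervals, which cover counting error only, overlapped between the pools. The IL cells counted here include 12 cells of cluster a and 2 of cluster b with a *Pomc* share under that of the free RNA, among them 6 of the cells rich in *Gh* and *Prl*. Without them cluster b made up 38.8% of 134 cells (30.5 to 47.6%). The cells of cluster b carried more RNA than those of cluster a. Their median was 3510 UMIs and 1530 genes per cell in pool 1, and 3981 UMIs and 1661 genes in pool 2. In cluster a the medians were 2840 UMIs and 1325 genes in pool 1, and 3202 UMIs and 1473 genes in pool 2. More than 5000 UMIs were found in 20 of 54 cells of cluster b (37.0%) and in 9 of 94 cells of cluster a (9.57%).

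The mitochondrially encoded share of UMIs was higher as well. Its median was 13.4% in pool 1 and 14.1% in pool 2 for cluster b, against 9.16% and 8.63% for cluster a. It ran from 5.49 to 23.5% in cluster b, up to the limit of 25% used to keep cells, and from 1.65 to 17.1% in cluster a, so that single cells overlapped. Under 10% lay 13 of 54 cells of cluster b (24.1%) and 63 of 94 cells of cluster a (67.0%). Within cluster b the cells with many UMIs had the lower mitochondrial shares. The Spearman correlation across its cells, which share 2 libraries and are not replicates, was -0.79 (n = 54 cells). In cluster a it was -0.57 (n = 94 cells). These quantities were not tested, because the clusters were cut from the same counts. In addition, 2 pools allow no two-sided exact permutation p under 0.333, even with the pairing of the clusters within a pool left aside.

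**Figure D2:**
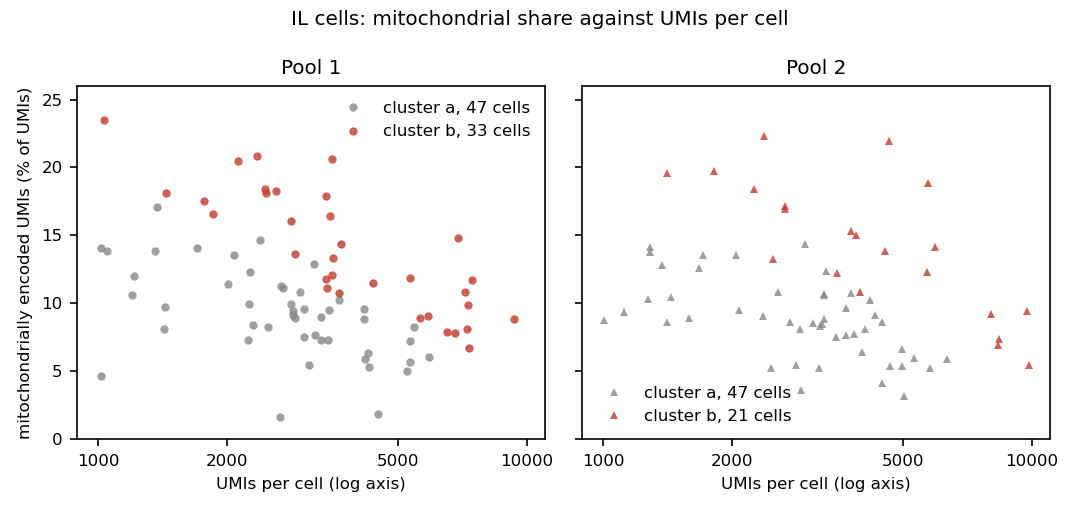
Mitochondrially encoded share of UMIs (percent) against UMIs per cell (log axis) for each IL cell, by pool, with cluster a in grey and cluster b in red. Most cells of cluster b lie above those of cluster a with a like number of UMIs, and the medians are 13.4 and 14.1% against 9.16 and 8.63%.

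To compare genes, counts were summed over the cells of each cluster and pool. The sums held 142617 and 101735 UMIs for cluster b and 138654 and 147805 for cluster a, and 4072 genes had at least 20 UMIs over the 4 sums. A gene was called 2-fold apart if the ratio of CPM plus 50 was at least 2-fold in the same direction in both pools. The call is a description, since the authors had built the clusters from these cells. It took 5 genes as higher in cluster b (0.123% of the genes compared) and 4 as lower (0.0982%). Of the 5 higher genes, 3 stayed 2-fold higher with means over cells in place of sums, and 0 of the 4 that could still be compared after every cell was thinned to 1000 UMIs. Of the 4 lower genes, 3 stayed 2-fold lower with means over cells, and 1 of the 3 that could be compared after thinning. *Fosb*, *Gem*, *Jund* and *Zfp36* were then higher in both pools but under 2-fold in 1 of them, while *Hyou1* had thinned log2 ratios of 0.04 and -0.85. With a mitochondrial limit of 10%, 2 of the 5 higher genes stayed 2-fold higher. Of the 3 lower genes that could be compared at that limit, 1 stayed 2-fold lower. With 200 CPM added in place of 50, 0 of the 5 and 0 of the 4 stayed. In pool 1 alone 34 genes were 2-fold higher and in pool 2 alone 71, so that most large ratios of a single pool did not recur. The median log2 ratio over all genes was -0.02 in pool 1 and 0.03 in pool 2. Ratios of the pools correlated at 0.18 (Pearson) across genes, which are not independent replicates, and 56.4% of the genes had the same sign.

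The 5 higher genes included 3 immediate early genes. *Fosb* (ENSMUSG00000003545, chromosome 7 from 19302696 to 19310051) encodes a partner of the AP-1 transcription factor. It was at 687 and 531 CPM in cluster b and at 296 and 210 CPM in cluster a. Both sums of cluster b were above both of cluster a, with a mean log2 ratio of 1.13 ± 0.05 (SD, n = 2 pools) and a log2 fold change fitted by edgeR of 1.27 (SE 0.26). After thinning, 38.9% of the cells of cluster b (exact 95% interval 25.9 to 53.1%, 68.5% unthinned) and 12.8% of cluster a (30.9% unthinned) had a *Fosb* UMI. *Jund*, another AP-1 gene (chromosome 8 from 70698949 to 70700616), was at 540 and 541 CPM against 238 and 183 CPM. *Zfp36* (chromosome 7 from 28376784 to 28380253), whose product speeds the decay of AU-rich mRNAs, was at 386 and 531 CPM against 166 and 196 CPM. For neither gene did the sums of the clusters overlap. The mean log2 ratio was 1.19 ± 0.22 for *Jund* and 1.13 ± 0.16 for *Zfp36* (SD, n = 2 pools).

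*Gem* (ENSMUSG00000028214, chromosome 4 from 11704457 to 11714752) encodes a small GTP-binding protein that restrains voltage-gated calcium channels and is induced by cAMP and calcium. It was at 231 and 315 CPM in cluster b and at 86.5 and 74.4 CPM in cluster a. Its mean log2 ratio of 1.30 ± 0.36 (SD, n = 2 pools) was the highest of the 5, and edgeR fitted 1.72 (SE 0.36). Outside the IL clusters *Gem* was highest in the T cell-like cells of pool 2, at 103 CPM. *Ino80d*, which encodes a subunit of the INO80 chromatin remodelling complex, was at 133 and 147 CPM against 36.1 and 47.4 CPM. This gene rested on 34 UMIs in cluster b. *Gem* and *Jund* were higher in cluster b than in every other cluster in both pools, and the other 3 were not. *Zfp36* reached 838 and 1429 CPM in microglia a, and *Fosb* 641 CPM in vascular endothelia of pool 2.

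The 4 lower genes had no list in common. *Hyou1* (chromosome 9 from 44379490 to 44392369), an ER chaperone gene, was at 147 and 108 CPM in cluster b against 346 and 365 CPM in cluster a. Its sums did not overlap, with a mean log2 ratio of -1.20 ± 0.27 (SD, n = 2 pools) and a fitted log2 fold change of -1.45 (SE 0.31). *Rbm45*, an RNA-binding protein gene, was at 7.01 and 9.83 CPM against 93.8 and 81.2 CPM. Only 2 UMIs of *Rbm45* were counted in cluster b. *Apoe*, a lipid carrier gene that glia express strongly, was at 63.1 and 108 CPM against 202 and 277 CPM. The free RNA of pool 1 held *Apoe* at 2693 CPM, above both clusters.

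*Nnat*, an imprinted gene of neuroendocrine cells, was at 84.1 and 19.7 CPM in cluster b and at 310 and 2808 CPM in cluster a. The high value of pool 2 went with 7 cells of cluster a that held at least 20 UMIs of *Gh* and *Prl*, the growth hormone and prolactin genes. These 7 cells held 301 of the 415 *Nnat* UMIs, 1814 of the 1833 *Gh* UMIs and 233 *Pomc* UMIs of cluster a in that pool. Cluster b held no such cell (0 of 54, which allows a share of up to 5.56%). *Gh* was at 63.1 and 226 CPM in cluster b and at 93.8 and 12401 CPM in cluster a. Without the 7 cells, *Nnat* of cluster a in pool 2 was at 911 CPM and its mean log2 ratio was -2.61. *Apoe* was then no longer 2-fold lower in both pools, with a mean log2 ratio of -0.91, while the 5 higher genes and the other 3 lower genes were the same.

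**Figure D3:**
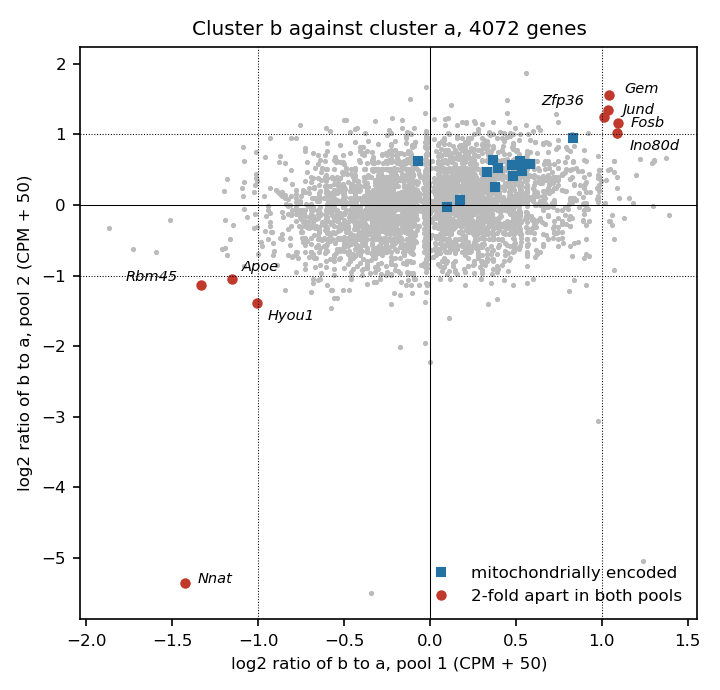
Log2 ratio of cluster b to cluster a (CPM plus 50) in pool 1 against pool 2 for 4072 genes, with red circles for the 9 genes 2-fold apart in both pools, blue squares for the 13 mitochondrially encoded genes and dotted lines at 2-fold. Most genes scatter around 0 with a correlation between pools of 0.18, and *Nnat* lies far lower in pool 2 than in pool 1.

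Just inside the 2-fold rule lay *Zfp36* on the higher side, with log2 ratios of 1.01 and 1.24, and *Hyou1* on the lower side, with -1.01 and -1.39. Just outside it on the higher side were *Rfx5*, *Hspa1b*, *Cacnb3*, *mt-Co1* and *Crem*, and on the lower side *Dnajc19*, *Ndufv3*, *Pet100*, *Clasp2* and *Cst3*. These genes were named after their values were seen, apart from *mt-Co1* and *Cacnb3*. *Crem*, which encodes cAMP-responsive activators and repressors, had log2 ratios of 0.83 and 1.003. *Cacnb3*, a calcium channel subunit gene, had 0.84 and 0.83. Both sums of cluster b were above both of cluster a for each of these 2 genes.

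Immediate early genes as a group were higher in cluster b. Of the 30 listed, 22 could be compared and 3 were 2-fold higher. Both sums of cluster b were above both of cluster a for 13 of the 22 and below for 2, *Egr4* and *Gadd45g*. Among all genes compared, 19.1% were above and 20% below in this way. The median log2 ratio of the list was 0.32 in pool 1 and 0.59 in pool 2. Its transcripts summed to 15629 and 17496 CPM in cluster b and to 11251 and 10541 CPM in cluster a.

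*Fos*, the most abundant of the list, was at 4228 and 4119 CPM in cluster b and at 2654 and 2733 CPM in cluster a, a mean log2 ratio of 0.62 ± 0.06 (SD, n = 2 pools). *Egr1*, a zinc finger transcription factor gene, was at 1613 and 1769 CPM against 1024 and 798 CPM. *Btg2*, an antiproliferative gene, was at 1669 and 1956 CPM against 1190 and 1272 CPM. For these 3 genes the sums of the clusters did not overlap. *Junb*, a further AP-1 gene named after its values were seen, did not follow them, with log2 ratios of -0.04 and 0.25. Early transcripts were spread over most cells of cluster b. Their level per cell ran from 0 to 33014 CPM with a median of 15284 CPM (quartiles 11322 and 18192 CPM). In cluster a the median was 7077 CPM (quartiles 1921 and 16083 CPM) and the highest cell had 36556 CPM. Cluster a thus reached the same levels in its upper cells and held more cells at low levels. Its cells include the 12 with a *Pomc* share under that of the free RNA, most of which lay below the lower quartile.

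The genes known to respond to cAMP and CREB went the same way. This list is not independent of the other, since *Fos*, *Fosb*, *Nr4a1*, *Nr4a2* and *Dusp1* were above in both. Of 23 listed, 15 could be compared, 2 were 2-fold higher (*Gem* and *Fosb*), 12 were above in both sums and 1, *Sik1*, was below. The 12 include *Nr4a2* and *Pde10a*, which were given as markers of the IL cells, so that the count is not independent of the choice of cells. Their median log2 ratio was 0.56 in pool 1 and 0.67 in pool 2, and their summed level was 9662 and 10242 CPM in cluster b against 6289 and 5933 CPM in cluster a. *Dusp1*, a phosphatase gene of the MAP kinase pathway, was at 1017 and 1052 CPM against 664 and 534 CPM. The remaining members given here were named after their values were seen. *Nr4a1* was at 764 and 668 CPM against 555 and 460 CPM. *Irs2*, an adaptor of insulin receptors, was at 210 and 147 CPM against 50.5 and 74.4 CPM. *Per1*, a clock gene, was at 98.2 and 68.8 CPM against 43.3 and 27.1 CPM. Their sums did not overlap between the clusters.

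**Figure D4:**
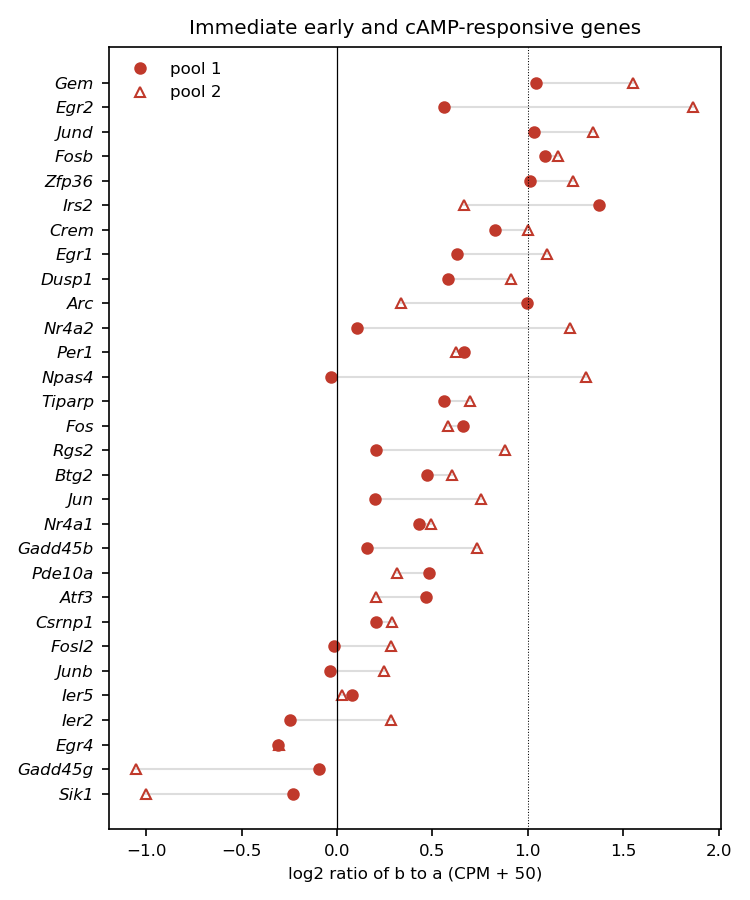
Log2 ratio of cluster b to cluster a (CPM plus 50) for each immediate early or cAMP-responsive gene that could be compared, with filled circles for pool 1, open triangles for pool 2 and a dotted line at 2-fold. *Gem*, *Jund*, *Fosb* and *Zfp36* are past the line in both pools, *Egr1*, *Egr2*, *Nr4a2*, *Npas4* and *Crem* in pool 2 alone and *Irs2* in pool 1 alone.

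Among the inputs of melanotropes, receptor transcripts were near the limit of detection. Of 20 receptor genes listed, 5 could be compared, 0 were above in both sums and *Gabrb1* was below. *Drd2*, the D2 receptor gene, held 1 UMI in cluster b, so that its level could not be compared at this depth. *Gabra2*, a subunit of the GABA-A receptor, was at 84.1 and 157 CPM against 86.5 and 88.0 CPM, and its sums overlapped. Of 11 voltage-gated channel genes compared, *Cacnb3*, *Scn2a1* and *Kcnc1* were above in both sums and *Cacnb4* was below. Those above were 27.3% of the list, near the background of 19.1%. The list median was 0.06 in pool 1 and 0.03 in pool 2, close to that of all genes.

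The mitochondrially encoded genes made up the other group that was higher. All 13 could be compared, 10 were above in both sums and 0 below, beside 19.1% above and 20% below over all genes. The median log2 ratio was 0.40 in pool 1 and 0.53 in pool 2. They summed to 121023 and 122819 CPM in cluster b and to 84130 and 80620 CPM in cluster a. *mt-Co1*, a subunit of cytochrome c oxidase, had the highest ratio of the list, at 26736 and 25714 CPM against 15023 and 13376 CPM. *mt-Co3*, of the same enzyme, was at 25712 and 28328 CPM against 19502 and 19641 CPM. *mt-Nd3*, a subunit of complex I named after its values were seen, did not share the direction in both pools, with log2 ratios of 0.10 and -0.03. These transcripts also abounded in the free RNA of pool 1, where *mt-Co3* was at 135981 CPM. The mitochondrial share is a criterion by which cells were kept, and with a limit of 10% in place of 25% the median log2 ratio of the list was 0.04.

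The nuclear genes of oxidative phosphorylation went the opposite way. Of 76 listed, 67 could be compared, 43 were below in both sums and 0 above, beside 20% below and 19.1% above over all genes. The median log2 ratio was -0.30 in pool 1 and -0.41 in pool 2, and the summed level was 19745 and 17339 CPM in cluster b against 25091 and 22597 CPM in cluster a. *Cox8a*, a subunit of cytochrome c oxidase, was at 975 and 924 CPM against 1219 and 1157 CPM. *Atp5e*, of ATP synthase and the most abundant of the list, was not lower, with log2 ratios of 0.10 and 0.08. The mean of both medians was -0.35. It was -0.39 with a mitochondrial limit of 10%, -0.25 with means over cells (30 of 67 below) and -0.21 after thinning (17 of 50 below). The background is that of sums over all cells, and none is given for these settings.

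Cytosolic ribosomal protein genes were lower by a small amount. Of 85 listed, 82 could be compared, 42 were below in both sums and 0 above. The median log2 ratio was -0.21 in pool 1 and -0.17 in pool 2. With a mitochondrial limit of 10%, 23 of 80 were below, beside the background of 20% over all cells, and the mean of both medians was -0.13. The summed level of the list was 100332 and 110778 CPM in cluster b against 116088 and 120754 CPM in cluster a. The most abundant members differed less than the list. *Rpl41* had log2 ratios of -0.06 and 0.06, and *Rps29* of -0.12 and 0.10.

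The genes of the ER showed a weaker pattern. Of 28 genes compared, 9 were below in both sums, beside the background of 20% over all genes, and 2 were above, *Ssr3* and *Herpud1*. The median log2 ratio was -0.10 in pool 1 and -0.23 in pool 2. *Hyou1* was the 1 gene past 2-fold. *Xbp1*, the transcription factor of the unfolded protein response, was at 98.2 and 88.5 CPM against 137 and 156 CPM, and *Manf*, a secreted ER stress protein gene, at 154 and 138 CPM against 260 and 244 CPM. Both were named after their values were seen. *Hspa5*, the ER chaperone BiP, went different ways in the pools, with 0.20 and -0.43. Without the 7 cells of cluster a rich in *Gh* and *Prl*, 5 genes of 25 were below and the median was -0.05. That count was at the background of 20% over all cells, on 25 genes in place of 28. Pool 1 held 0 of these cells, and its median with all cells was -0.10. The part of the 7 cells in the pattern of this list was not tested.

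The count of heat shock genes was near the background. Of 11 compared, *Hspa1b*, *Hspd1* and *Hsph1* (27.3%, beside the background of 19.1%) were above in both sums and 0 were below, with a median log2 ratio of 0.58 in pool 1 and 0.31 in pool 2. *Hspa1b* and *Hspa1a* encode inducible HSP70, and *Hspa1a* went different ways in the pools, with log2 ratios of 1.07 and -0.93. *Dnajb1*, a cochaperone gene of HSP70, was at 1108 and 423 CPM in cluster b against 447 and 250 CPM in cluster a. Its level in cluster b of pool 2 was below that of cluster a in pool 1. *Hsp90ab1*, the most abundant, was not higher, with log2 ratios of -0.17 and -0.03.

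**Figure D5:**
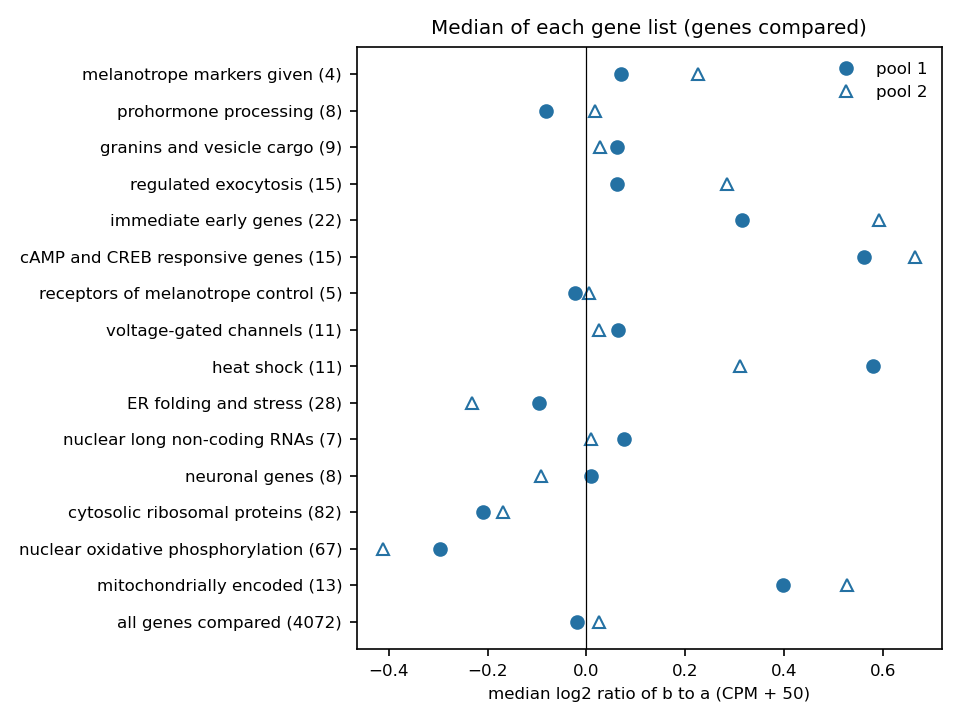
Median log2 ratio of cluster b to cluster a (CPM plus 50) for 15 gene lists and for all genes, with the number of genes compared in parentheses, filled circles for pool 1 and open triangles for pool 2. The cAMP-responsive list is at 0.56 and 0.67 and the nuclear oxidative phosphorylation list at -0.30 and -0.41, beside -0.02 and 0.03 for all genes.

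Genes of the secretory product showed no common direction. Of 8 prohormone processing genes compared, *Pcsk2* and *Cpd* were above in both sums and *Scg5* and *Pam* below. *Pam*, the enzyme that amidates peptides, was at 687 and 953 CPM against 1168 and 1549 CPM, a mean log2 ratio of -0.70 ± 0.04 (SD, n = 2 pools). *Pcsk1*, the gene of PC1/3, held 7 UMIs in cluster b and was not compared. Of 9 granin and vesicle cargo genes, *Ptprn2* was above and *Chgb* below. The counts of both lists rest on few genes. They were not far from the background of 19.1% above and 20% below over all genes. *Chga*, the chromogranin A gene, was at 1150 and 698 CPM against 1067 and 643 CPM, with overlapping sums. *Pam*, *Cpd*, *Scg5* and *Chgb* were named after their values were seen.

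The count of exocytosis genes was not far from the background. Of 15 exocytosis genes compared, *Snap25*, *Vamp2*, *Syt1*, *Cplx2* and *Rab3c* were above in both sums and *Nsf* below, and the list median was 0.06 in pool 1 and 0.28 in pool 2. *Syt1*, the calcium sensor of vesicle fusion, was at 554 and 550 CPM against 361 and 453 CPM. Beside the background of 19.1%, the genes above were 33.3% of the list, on few genes. Of the pituitary lineage transcription factor genes given here, *Pax7*, *Tbx19*, *Pitx1* and *Six3* were above in both sums. *Pax7* was at 161 and 206 CPM against 108 and 115 CPM.

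Nuclear long non-coding RNAs and neuronal genes had list medians near 0. Of 7 nuclear long non-coding RNAs, *Neat1* was above in both sums and *Malat1* below, with *Malat1* at 61192 and 57424 CPM against 65285 and 69010 CPM. Of 8 neuronal genes, *Map2* was above and *Celf4* below. *Cd24a*, from the list of neural progenitor genes, was above as well. None of the 8 proliferation genes reached the minimum of 20 UMIs over the 4 sums (0 compared).

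Markers of other cell types were low in cluster b. The 8 pituicyte markers summed to 126 and 29.5 CPM, against 7193 and 7472 CPM in pituicytes, and their most abundant gene was *Srebf1*, with 7 UMIs. The 5 macrophage and microglia markers summed to 14.0 and 39.3 CPM, and all 4 T-cell markers and all 4 markers of vascular and leptomeningeal cells were at 0 UMIs. Of the endothelial markers, *Emcn*, *Flt1* and *Plvap* were at 0. *Pecam1* was at 287 and 442 CPM in cluster b, at 238 and 318 CPM in cluster a, and at 1146 and 641 CPM in vascular endothelia, where its deposited mean was the highest of the 11 clusters. *Clu*, a marker of epithelial-like cells, was at 407 and 344 CPM in cluster b and at 426 and 250 CPM in cluster a. *Oxt* and *Avp*, the transcripts of hypothalamic axons, summed to 105 and 108 CPM in cluster b and to 7678 CPM in the free RNA of pool 1. Scrublet marked 5 of the 528 cells as doublets, of which 0 were in cluster b.

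In the deposited table of means, cluster b had the highest of the 11 means for 495 of the 3012 genes with a mean of at least 0.5 UMIs per 10000. For 30 genes it was at least 2-fold over the highest other column. The 8 with the largest ratios were *Dtx1*, *Gorab*, *Gem*, *Ptprn2*, *Neurl1a*, *Tnxb*, *Dnajb1* and *Tmem184a*. The ratio was 3.41 for *Dtx1*, a Notch pathway regulator gene, and 3.10 for *Gem*, and the highest other column was cluster a for 6 of the 8. The pool sums held this order for part of them only. *Dtx1* was at 77.1 and 108 CPM against 43.3 and 6.77 CPM in cluster a. *Gorab* was at 56.1 and 9.83 CPM against 14.4 and 27.1 CPM, so that its mean rested on pool 1. With cluster a left out, 201 of the 3012 genes were 2-fold higher in cluster b than in the highest of the other 9 columns. For cluster a the count was 161, among genes with a mean of at least 0.5 in cluster a. These are different sets of genes, each chosen by the cluster counted, so that the counts cannot be compared.

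The 10 most abundant transcripts of cluster b were *Pomc*, *Malat1*, *Meg3*, *Cnot3* and 6 that are mitochondrially encoded. *Cnot3*, which encodes a subunit of the CCR4-NOT deadenylase complex, differed between the pools more than between the clusters. It was at 10868 and 4522 CPM in cluster b and at 8503 and 2963 CPM in cluster a, higher in pool 1 in both. The free RNA of pool 1 held it at 25774 CPM. Across genes, the sums of cluster b in the 2 pools correlated at 0.898 (Pearson). Clusters a and b correlated at 0.909 in pool 1 and at 0.873 in pool 2, so that the pools of a cluster were about as far apart as the clusters of a pool.

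The pituicytes also split into clusters of low and high mitochondrial share, a and c, which allows the same lists to be read there. The mitochondrially encoded list had a median log2 ratio of c to a of 0.70 in pool 1 and 0.71 in pool 2, beside 0.40 and 0.53 for b to a in IL cells. Immediate early genes had 0.20 and -1.36 in pituicytes (12 genes compared), beside 0.32 and 0.59 in IL cells (22 genes), so that the members differed. Nuclear oxidative phosphorylation genes had -0.03 and -0.13, beside -0.30 and -0.41, and ribosomal protein genes 0.40 and 0.17, beside -0.21 and -0.17. The mitochondrial value restates how these pituicyte clusters were chosen. Early genes had another direction in pituicytes in pool 2, and ribosomal genes in both pools. The difference between the cell types was not tested. Within cluster b itself, cells with more UMIs had higher early transcript levels. The Spearman correlation was 0.39 (n = 54 cells), and in cluster a it was 0.37 (n = 94 cells). Cells with a higher mitochondrial share had lower early transcript levels, at -0.47 in cluster b and -0.50 in cluster a. Among cells with a share under 10%, 13 of cluster b and 63 of cluster a, the immediate early list had a median log2 ratio of 0.52 as the mean of both pools, beside 0.45 for all cells, and the cAMP-responsive list 0.59, beside 0.61. Of the early genes, 9 of 20 were above in both sums there, beside 13 of 22 with all cells. Only 5 of these cells of cluster b were from pool 2, and median UMIs per cell were 2.33 times those of cluster a. The part of depth and of the mitochondrial share in the early genes was not tested.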

How the data were processed

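For each of 2 pools the authors deposited raw UMI counts in a matrix of genes by barcodes, made with Cell Ranger (versions 1.2.1, 2.0.0 and 2.1 and STAR 2.5.1b in the submitters' processing notes) on mm10. They also deposited, from Seurat 2.3, mean counts scaled to 10000 per cell for 11 clusters, a linear score over both pools without error. Kept were cells of 1001 to 9999 UMIs and 401 to 4999 genes whose mitochondrial share was under 25%, 273 in pool 1 and 255 in pool 2. They were assigned by least squares on the deposited means. For 40 genes the mean of the assigned cells differed by over 0.05 from the deposited mean of cluster b, at most by 0.439 (*Pomc*). Non-negative least squares gave the same 54 of 54 cells, and doublets were kept.

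Counts were summed per cluster and pool and given as CPM. Since the UMIs are 3′ tags counted per molecule, levels are not divided by gene length. Log2 ratios used CPM plus 50, for genes with at least 20 UMIs over 4 sums, which understates the change of low genes. No p-value was computed between clusters, since these were cut from the same counts. edgeR 4.0.16 (R 4.3.3, quasi-likelihood fit of 4 sums, no block) gave fitted log2 fold changes with SE, and was tested on simulated data. Sums of the same pool share mice and library, which pairs them (correlation of the deviations of a and b 0.0952). Intervals are exact Clopper-Pearson at 95%, limits of 0 are 3 counts, and both cover counting error only. Thinning drew 1000 UMIs per cell with Scanpy 1.11.5 used for Scrublet. The alternatives were other library sizes (TMM, DESeq2 1.42.0 and totals without *Pomc* and mitochondrial genes), pseudocounts, filters, cell means, thinning, a mitochondrial limit of 10%, doublets, single pools, a pool block and other fits.

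The rule on named genes took the 4 markers, the 10 most abundant genes, those 2-fold apart (up to 12 each way), 8 genes of the table, and per list those 2-fold apart with the 3 most abundant. Members and lists were chosen with earlier results of these data known, and some members of the pituitary lineage and neural progenitor lists are not reported here. Gene positions are from GENCODE vM21 and promoters from RefSeq, where *Gem* and *Ino80d* were not matched. The matrix of pool 2 held no barcodes of 1 to 50 UMIs, so that free RNA is that of 157608 barcodes of pool 1.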

Additional observations from a re-analysis of the deposited data

Results flagged for a closer look

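Part of the barcodes left out by the limits on cells held *Pomc* UMIs beyond the 1.57% of the free RNA of pool 1. Those that failed the mitochondrial limit alone, 56 in pool 1 and 27 in pool 2, held 1.66% (exact 95% interval 1.58 to 1.74%) and 4.58% (4.40 to 4.77%) *Pomc* UMIs. Of them, 6 in pool 1 and 8 in pool 2 held 5% or more. Barcodes above the upper limit on UMIs, 9 in pool 1 and 11 in pool 2, held 6.49% (6.37 to 6.62%) and 4.22% (4.12 to 4.32%), with 6 and 4 of them at 5% or more. Barcodes just under the lower limit on UMIs, 319 in pool 1 and 294 in pool 2, held between 1.58 and 1.68% and between 2.24 and 2.37% (exact 95% intervals), with 29 and 45 of them at 5% or more. Barcodes within the limits on UMIs and outside those on genes held 1.19% (1.09 to 1.30%) in pool 1, under the free RNA, and 1.78% (1.68 to 1.89%) in pool 2. For pool 2 the free RNA of pool 1 is the only background used here. Barcodes rich in *Pomc* were thus among those left out, and it was not tested to which cluster they would belong. The groups of 2 pools were too small to be searched for outlying samples.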

How the results depend on the processing

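The counts of genes 2-fold apart depended on the pseudocount. With 10 CPM in place of 50 there were 37 higher and 29 lower genes, and with 200 CPM there were 0 and 0. In a single pool there were between 34 and 71 higher and between 34 and 64 lower genes. After thinning to 1000 UMIs per cell 7 genes were lower, of which 1 was shared with the 4, and of the 4 then higher 0 were shared with the 5. With means over cells *Jund*, *Ino80d* and *Hyou1* were no longer 2-fold apart in both pools, with TMM factors *Ino80d* and without doublets *Zfp36*. With a mitochondrial limit of 10% there were 11 lower genes, and 2 of the 5 higher genes were shared. Of the 4 lower genes 3 could be compared there, and 1 was shared. The list medians, as means of both pools, were 0.45 for immediate early, 0.61 for cAMP-responsive, 0.46 for mitochondrially encoded, -0.16 for ER, -0.19 for ribosomal and -0.35 for nuclear oxidative phosphorylation genes, and their directions were the same under every alternative run. The cAMP-responsive median was 0.79 with 10 CPM, 0.36 with 200 CPM and 0.46 without the filter, where the immediate early median was 0.24. With 200 CPM the ribosomal median was -0.16 and the oxidative phosphorylation median -0.22. With means over cells these were -0.23 and -0.25, and the mitochondrial median was 0.56. After thinning, the medians were 0.66 for immediate early genes (8 of 14 above), -0.31 for ER genes (3 of 19 below), -0.16 for ribosomal genes, -0.21 for oxidative phosphorylation genes (17 of 50 below) and 0.61 for mitochondrial genes, and 5 of 9 cAMP-responsive genes were above. With a mitochondrial limit of 10%, which by construction takes out cells of high share, the mitochondrial median was 0.035 (6 of 12 above) and the ribosomal median -0.13 (23 of 80 below). Median UMIs, genes and mitochondrial share were then 2.33, 2.04 and 1.02 times those of cluster a. No share over all genes is given beside the counts of members above or below under an alternative. With totals that leave out *Pomc* and mitochondrial genes the ribosomal median was -0.16. Without the 7 cells rich in *Gh* and *Prl*, an alternative chosen after seeing the data, it was -0.16, and the ER median was -0.048 (5 of 25 below). The median of granin genes changed sign, from 0.04 to -0.011 with a filter of 50 UMIs and to -0.17 after thinning, and that of nuclear long non-coding RNAs from 0.04 to -0.010 with means over cells. Of the other values under an alternative, for single genes and further lists, 1510 moved by less than the spread between pools and 307 by more, with the same sign of the mean of both pools for every gene called 2-fold apart. Apart from the construction of the alternatives, the cause was not tested. With the pool as replicate block, edgeR fitted a 2-fold or larger change for 181 higher and 180 lower genes, against 182 and 167 without it. The counts were 232 and 119 with edgeR over all clusters, and 194 and 189 with DESeq2. With 244352 UMIs in cluster b, genes under about 12.3 CPM could not be told from 0.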
